A study of Mus musculus with 17 samples.

Results

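Notch receptors and their ligands were followed in CD31+ cells of the mouse aorta-gonad-mesonephros (AGM) region, the embryonic tissue around the dorsal aorta in which haematopoietic stem cells arise. The set holds 9 of the 19937 genes measured and was chosen by name, not by level: the 4 receptors Notch1, Notch2, Notch3 and Notch4, the 2 Jagged ligands Jag1 and Jag2, and the 3 Delta-like ligands Dll1, Dll3 and Dll4. All 9 were measured, each by a single probe set with 1 gene symbol (10488060 for Jag1, 10474958 for Dll4, 10444352 for Notch4, 10494595 for Notch2). Another 4 probe sets that Notch4 shares with a second gene were not used. Values are log2 signals, so that a difference of 1 is a doubling. Probe sets differ in brightness, and levels of different genes were therefore not compared with each other.

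Cells from pooled E11.5 mouse embryos, whose strain and genotype are not given in the sources used here, were sorted as CD31+CD45-Ter119- and profiled on 17 arrays in 6 groups. Kit+J and Kit+D cells (3 arrays each) were those carrying Kit after 2 h on OP9-Jag1 or OP9-Dll4 stroma, a mouse bone marrow stromal line made to overexpress that ligand. Kit+ cells (3 arrays) were sorted fresh. Kit-J (2 arrays) and Kit-D cells (3 arrays) were those without Kit after the same cultures, and Kit- cells (3 arrays) were sorted fresh. The cultures contained stem cell factor, VEGF and other growth factors, which fresh cells did not receive, and OP9 cells without an added ligand were not analysed here. The 6 fresh arrays had been deposited before, with another series. In every comparison of cultured with fresh cells, culture and set of arrays therefore cannot be told apart. Replicates are separate sorting experiments according to the study's methods, and a further Kit-J sample had been left out by the study on technical grounds. Kit-J, with 2 arrays, borrows its spread from the other groups.

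The arrays were checked against marker genes before the members were compared. On 4 arrays (both of Kit-J, and replicate 3 of Kit+D and of Kit-D) a description line names the opposite Kit population, and their titles were followed. Removing both Kit-J arrays would leave none in that group, so this conflict was not tested for Kit-J. Kit itself lay at 8.51 to 9.93 on the 6 cultured Kit+ arrays and 9.44 to 9.55 on fresh Kit+ arrays, against 8.50 and 9.08 on Kit-J, 7.05 to 8.02 on Kit-D and 8.13 to 8.29 on Kit- arrays, so that the Kit-J arrays overlapped with Kit+J and Kit+D. The mean of 15 endothelial markers, relative to the Kit- mean, was -2.88 to -2.46 on Kit+J, -2.60 to -1.61 on Kit+D, -2.68 to -2.41 on Kit+, -2.07 and -1.68 on Kit-J, and 0.07 to 0.52 on Kit-D. Of the 15 markers, 12 were lower in Kit+ than in Kit- and 15 lower in Kit+D than in Kit-D, with 0 higher in either. Of all genes, 2.67% and 6.62% were lower in these comparisons. The mean of 15 stromal markers reached 0.79 on Kit-D replicate 3 and 0.16 on Kit+D replicate 3, against -1.22 and -0.87 on Kit+D replicates 1 and 2. That of 15 blood and myeloid markers was 0.83 on Kit+D replicate 1 and -0.45 and -1.40 on replicates 2 and 3, and that of 12 germ cell markers was -1.40 on Kit+D replicate 1 and 1.03 and 1.69 on the others. On fresh Kit+ arrays the germ cell mean was 0.85 to 1.2, and on Kit+J arrays 1.09 to 1.52. The blood and myeloid mean was -0.81 to -0.72 on fresh Kit+ arrays. Of 12 germ cell markers, 2 were higher and 0 lower in Kit+ than in Kit- cells. In Kit+D against Kit-D cells 5 were higher and 0 lower. Of 15 blood and myeloid markers, 1 was higher and 3 lower in Kit+ than in Kit- cells. In these bulk samples fewer cells of a type and less RNA per cell cannot be told apart.

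Notch receptors are single-pass membrane proteins that are cleaved when a Jagged or Delta-like ligand on a neighbouring cell binds them, and the released intracellular domain acts with the DNA-binding protein RBPJ to switch on target genes. Ligands on the same cell can also block the receptor. In the embryonic aorta, Notch1 is needed for arterial identity and for haematopoietic stem cells, Dll4 is the main arterial ligand, and Jag1 is needed for definitive haematopoiesis. Notch4 is a receptor largely confined to endothelium.

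The promoters of the 3 members that differed between fresh Kit+ and Kit- cells (Jag1, Dll4 and Notch4) are shown because these members were lower together. The sequences are those of RefSeq for GRCm38.p6, from 250 bases before to 50 after the start, written 5′ to 3′ along the gene, and capitals mark CpG dinucleotides.
Jag1 promoter, chr2:137116471-137116770, reverse strand: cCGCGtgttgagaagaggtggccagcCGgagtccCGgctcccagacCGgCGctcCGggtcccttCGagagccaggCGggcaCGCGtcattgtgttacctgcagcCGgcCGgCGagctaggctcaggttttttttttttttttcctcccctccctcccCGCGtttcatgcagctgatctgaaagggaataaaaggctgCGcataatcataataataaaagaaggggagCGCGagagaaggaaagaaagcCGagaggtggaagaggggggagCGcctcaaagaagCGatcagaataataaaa
Dll4 promoter, chr2:119325534-119325833, forward strand: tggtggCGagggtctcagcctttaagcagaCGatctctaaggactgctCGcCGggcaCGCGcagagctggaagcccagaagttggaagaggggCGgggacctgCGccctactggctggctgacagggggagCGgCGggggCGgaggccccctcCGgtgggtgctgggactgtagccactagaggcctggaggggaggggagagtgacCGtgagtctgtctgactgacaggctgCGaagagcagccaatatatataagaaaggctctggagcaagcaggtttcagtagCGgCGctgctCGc
Notch4 promoter, chr17:34564045-34564344, forward strand: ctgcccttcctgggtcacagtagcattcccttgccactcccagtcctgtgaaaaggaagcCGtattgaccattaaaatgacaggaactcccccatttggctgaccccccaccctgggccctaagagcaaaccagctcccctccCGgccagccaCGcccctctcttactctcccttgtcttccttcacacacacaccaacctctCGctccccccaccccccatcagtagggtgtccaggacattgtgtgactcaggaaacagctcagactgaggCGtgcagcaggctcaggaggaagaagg
Jag1 and Dll4 hold 22 and 17 CpG in these 300 bases and Notch4 holds 5, where the median of 32851 mouse promoters is 7. Their GC content is 55.7%, 63.7% and 58.3%, against a median of 52.7% (quartiles 45.7% and 61.7%). The letters of the RBPJ site TGGGAA, searched on both strands, are in 0 of the 10 promoters listed for the 9 members (Dll1 has 2) and in 25.6% of all promoters. The ETS letters CCGGAA were likewise in 0 of 10, against 14.9% of all promoters. The SOX letters AACAAT were in 0 of 10, against 10.7%, and an E box, spelled CACGTG, in 0 of 10, against 7.2%. The GATA letters GATAAG were in 1 of 10, that of Notch3, against 7.4%. These counts describe the letters in these windows only.

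**Figure D1:**
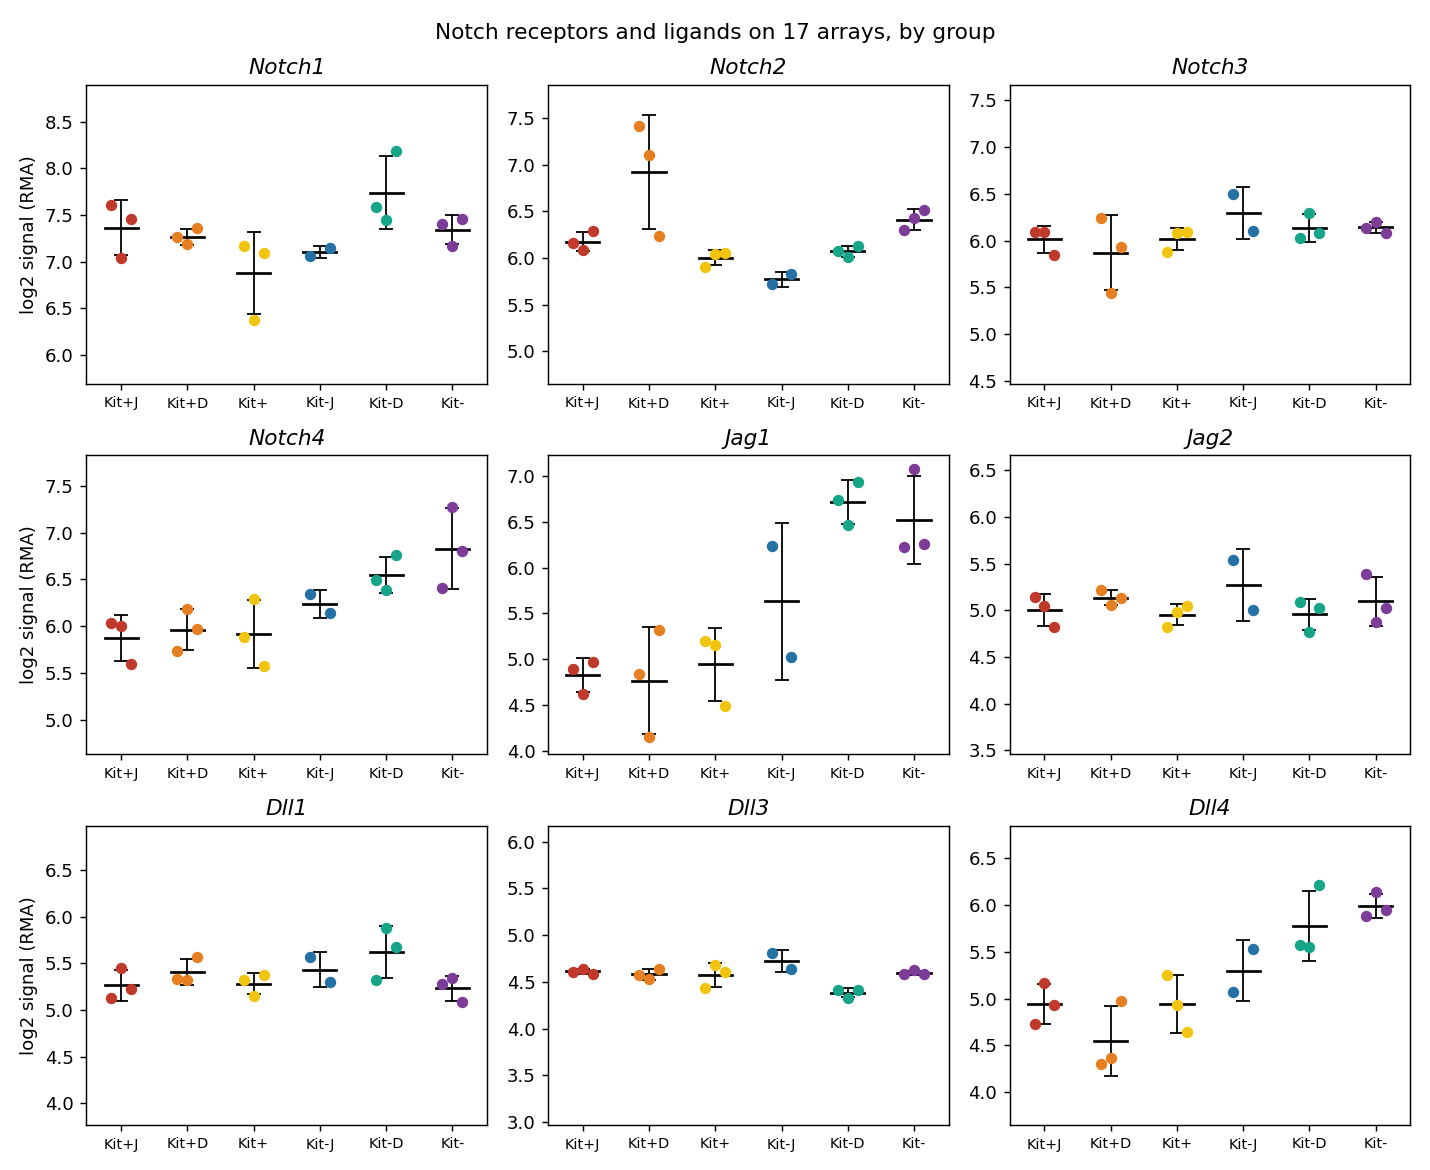
Log2 signal (RMA) of the 9 Notch receptors and ligands on each of the 17 arrays, by group; points are arrays, horizontal lines group means and bars SD, and each panel has its own axis range of the same length. Jag1 lies at 4.15 to 5.32 on the 9 arrays of Kit+J, Kit+D and Kit+ cells and at 6.22 to 7.07 on the 6 arrays of Kit-D and Kit- cells, and Notch2 reaches 7.41 and 7.11 on Kit+D replicates 1 and 2.

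The question of the first comparison was which receptors and ligands differ between the Kit+ cells of the AGM, which include the haematopoietic precursors, and Kit- endothelial cells before culture. Of the 9 members, 3 were lower in Kit+ than in Kit- cells and 0 higher (adjusted p under 0.05, limma), where 2.67% of all genes tested were lower and 0.562% higher. The 3 were the ligands Jag1 and Dll4 and the receptor Notch4. The median difference of the 9 members was -0.41, against 0.06 over all genes. The fresh Kit+ arrays also had higher germ cell means and lower endothelial means than the Kit- arrays. The part of these markers in the members' values was not tested.

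Jag1 was at 5.20, 5.16 and 4.49 in Kit+ cells, against 6.22, 7.07 and 6.26 in Kit- cells. All Kit+ arrays lay below all Kit- arrays. The difference was -1.57 (standard error 0.34, adjusted p = 0.0181, limma), or 2.97-fold lower in Kit+ cells. The call was lost without Kit- replicate 2, the highest Kit- array (adjusted p = 0.1), and without Kit+ replicate 3, the lowest Kit+ array (adjusted p = 0.0996).

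Dll4 was at 5.25, 4.94 and 4.64 in Kit+ cells, against 5.89, 6.14 and 5.95 in Kit- cells. The groups did not overlap, and the Kit- arrays lay closer together than the Kit+ arrays. The difference was -1.05 (standard error 0.23, adjusted p = 0.0201, limma), or 2.07-fold lower in Kit+ cells. It was lost without any Kit- replicate or without Kit+ replicate 2 or 3 (adjusted p from 0.0505 to 0.109).

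Notch4 was at 5.88, 6.29 and 5.57 in Kit+ cells, against 6.41, 7.28 and 6.80 in Kit- cells. Its highest Kit+ array and its lowest Kit- array were close to each other, and the groups did not overlap. The difference was -0.92 (standard error 0.23, adjusted p = 0.0416, limma), or 1.89-fold lower in Kit+ cells. This was the least stable of the 3 calls, lost when any of 9 of the 17 arrays was left out: Kit+ replicate 1 or 3, Kit- replicate 2 or 3, Kit+J replicate 1, Kit-J replicate 1 or 2 and Kit-D replicate 1 or 2 (adjusted p from 0.0193 to 0.206 over the 17).

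The receptor Notch1 was at 7.16, 6.37 and 7.09 in Kit+ cells, against 7.41, 7.16 and 7.45 in Kit- cells, and the groups touched at 7.16 (difference -0.47, 95% interval -0.95 to 0.02, adjusted p = 0.402, limma). Notch2 was at 5.91, 6.05 and 6.05 in Kit+ cells, against 6.30, 6.42 and 6.51 in Kit- cells, without overlap and without a call (difference -0.41, adjusted p = 0.461). With Jag1, Dll4 and Notch4 it made 4 members whose Kit+ arrays all lay below the Kit- arrays, as was so for 10.5% of all genes.

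The Kit gates were compared again after 2 h of culture. On OP9-Dll4, 2 of the 9 members were lower in Kit+D than in Kit-D cells and 1 was higher, where 6.62% of all genes were lower and 6.5% higher. Jag1 and Dll4 were the 2 lower members and Notch2 was the higher. In Kit+J against Kit-J cells 0 of 9 were called, where 0.0903% of all genes were called in either direction, and 0 of the 9 had an unadjusted p under 0.05, against 10.7% of all genes.

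Jag1 was at 4.84, 4.15 and 5.32 in Kit+D cells, against 6.74, 6.46 and 6.94 in Kit-D cells. Every Kit+D array lay more than 1 log2 unit below every Kit-D array. The difference was -1.95 (standard error 0.34, adjusted p = 0.00196, limma), or 3.85-fold lower in Kit+D cells. It was called whichever array was left out (adjusted p from 0.0011 to 0.0123).

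Dll4 was at 4.30, 4.37 and 4.98 in Kit+D cells, against 5.57, 5.56 and 6.21 in Kit-D cells, so that replicate 3 was the highest of both groups and the groups did not overlap. The difference was -1.23 (standard error 0.23, adjusted p = 0.00312, limma), or 2.35-fold lower in Kit+D cells, with an adjusted p of 0.00138 to 0.0187 when each array was left out. Both replicates numbered 3 carry the conflicting description line. With these 2 arrays removed, the Jag1 and Dll4 calls were kept.

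Notch2 was at 7.41, 7.11 and 6.23 in Kit+D cells, against 6.08, 6.01 and 6.13 in Kit-D cells. Replicates 1 and 2 of Kit+D lay more than 0.5 above every other array of the study, while replicate 3 lay within the range of Kit+J cells. The difference was 0.85 (standard error 0.22, adjusted p = 0.0186, limma), or 1.80-fold higher in Kit+D cells. The 2 high arrays differed in their markers, with blood and myeloid means of 0.83 and -0.45 and germ cell means of -1.40 and 1.03, and replicate 3 had the highest stromal mean of Kit+D (0.16). The part of these markers in the Notch2 signal was not tested. The call was lost without Kit-D replicate 1 or 2 or Kit+D replicate 1 or 2 (adjusted p from 0.0507 to 0.0764). It was also lost in a fit of the OP9-Dll4 arrays that paired equal replicate numbers as a block (adjusted p = 0.123).

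Notch4 was at 5.74, 6.18 and 5.97 in Kit+D cells, against 6.49, 6.39 and 6.76 in Kit-D cells, and the difference missed the threshold although the groups did not overlap (-0.59, 95% interval -1.08 to -0.10, adjusted p = 0.109, limma). Notch1 was at 7.26, 7.18 and 7.36 in Kit+D cells, against 7.59, 7.44 and 8.18 in Kit-D cells (-0.47, adjusted p = 0.194). In all, 4 members lay wholly lower and 2 wholly higher in Kit+D than in Kit-D cells, as did 14.3% and 17.7% of all genes.

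On OP9-Jag1, Jag1 was at 4.89, 4.62 and 4.97 in Kit+J cells, against 6.24 and 5.03 in Kit-J cells. The 2 Kit-J arrays were thus far apart, the first among the Kit- arrays and the second next to the Kit+J arrays (difference -0.80, 95% interval -1.62 to 0.01, adjusted p = 0.475, limma). Dll4 was at 4.73, 5.16 and 4.94 in Kit+J cells, against 5.07 and 5.53 in Kit-J cells, which overlapped (-0.36, adjusted p = 0.682). Notch4 was at 5.59 to 6.03 in Kit+J cells and at 6.35 and 6.14 in Kit-J cells (-0.37, adjusted p = 0.667). Whether the gap between the Kit gates differed between the stromas was tested as the difference of the stroma effects, in which 0 of 9 members were called and 1.98% of all genes were. It was -1.14 for Jag1 (95% interval -2.24 to -0.04, adjusted p = 0.283) and -0.88 for Dll4 (-1.62 to -0.13, adjusted p = 0.221), taken as the OP9-Jag1 minus OP9-Dll4 difference in Kit- cells less that in Kit+ cells, and 3 of 9 members, against 16.5% of all genes, had an unadjusted p under 0.05.

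**Figure D2:**
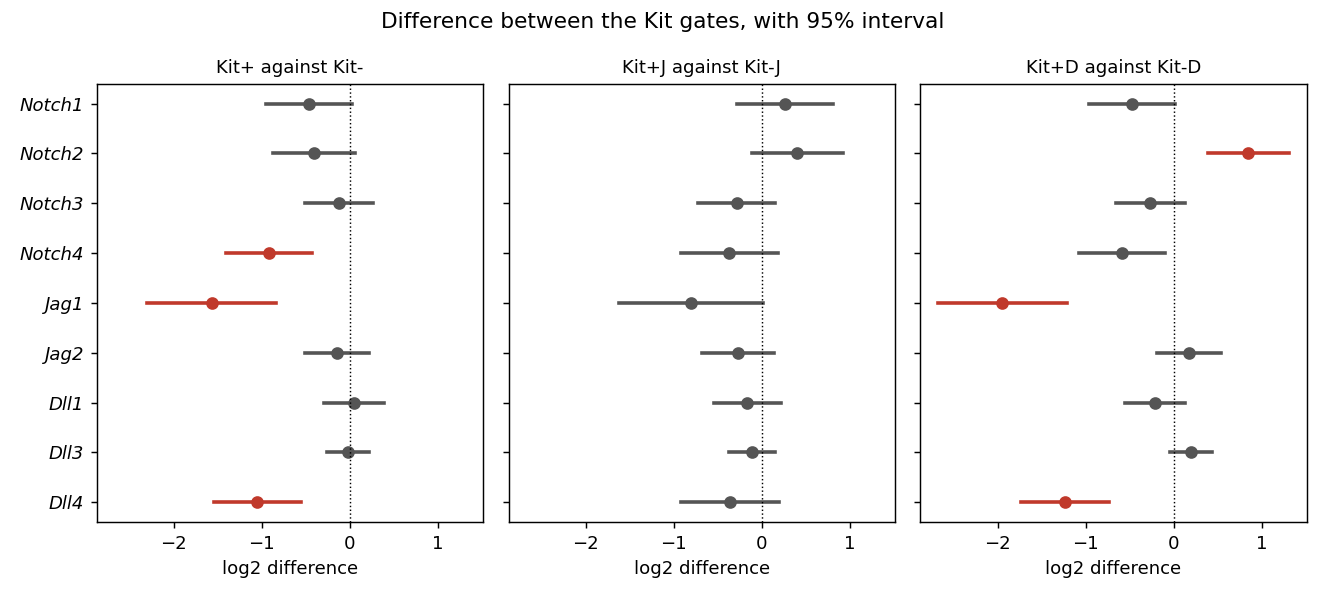
Log2 difference of each member between the Kit gates in fresh cells, on OP9-Jag1 and on OP9-Dll4; points are estimates of the model over all 17 arrays, bars 95% intervals, and red marks an adjusted p under 0.05. Jag1 differed by -1.57 in fresh cells and -1.95 on OP9-Dll4, Dll4 by -1.05 and -1.23, and 0 of 9 members are red on OP9-Jag1.

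Each cultured population was then set against its fresh counterpart, which asks whether 2 h on a ligand-bearing stroma goes with a change of the cells' own receptors and ligands. In each of these 4 comparisons 0 of the 9 members were called (limma). The share of all genes called in either direction was 0.0201% in Kit+J against Kit+, 1.42% in Kit+D against Kit+, 2.14% in Kit-J against Kit- and 0.171% in Kit-D against Kit-. At an unadjusted p under 0.05 there were 4 of 9 members in Kit-J against Kit- cells, against 13.7% of all genes. There was 1 of 9 in each of the others, a share near that of all genes (6.67% in Kit+J against Kit+, 17% in Kit+D against Kit+ and 11.2% in Kit-D against Kit-). Comparisons with the same fresh group share its arrays.

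Notch2 in Kit+D cells came closest to the threshold. Its 7.41, 7.11 and 6.23 in Kit+D cells, against 5.91, 6.05 and 6.05 in Kit+ cells, gave a difference of 0.91 (95% interval 0.45 to 1.38, adjusted p = 0.0513, limma). All Kit+D arrays were higher than all Kit+ arrays, replicate 3 by the least. Without replicate 3 the difference was 1.26 (adjusted p = 0.00192, limma). Notch1 (0.39) and Jag2 (0.18) also had all Kit+D arrays above all Kit+ arrays, without a call. The share of all genes wholly higher in Kit+D or in Kit+J than in Kit+ cells is not given here. Notch2 in Kit+J cells was at 6.16, 6.09 and 6.28, which also lay above all Kit+ arrays but by less (0.17, 95% interval -0.29 to 0.63). The difference between the OP9-Dll4 culture effects of Kit- and of Kit+ cells was -1.25 for Notch2 (95% interval -1.91 to -0.60, unadjusted p = 0.000978 from limma, adjusted p = 0.278). In that test 0 of 19937 genes were called and 8.98% had an unadjusted p under 0.05.

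In Kit-J cells, 4 members lay wholly below fresh Kit- cells and 1 wholly above, where 12.8% and 19.7% of all genes did. Notch2 was at 5.72 and 5.83 in Kit-J cells, against 6.30, 6.42 and 6.51 in Kit- cells (difference -0.64, 95% interval -1.15 to -0.12, adjusted p = 0.252, limma). Dll4 was at 5.07 and 5.53 in Kit-J cells, against 5.89, 6.14 and 5.95 in Kit- cells (-0.69, adjusted p = 0.246). Both genes thus had their Kit-J arrays below the Kit- range. Notch2 lay below that range on the Kit-D arrays too (6.01 to 6.13).

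Notch4, at 6.35 and 6.14 in Kit-J cells and 6.41 to 7.28 in Kit- cells, differed by -0.59 (adjusted p = 0.33), and Notch1, at 7.06 and 7.15 in Kit-J cells and 7.16 to 7.45 in Kit- cells, by -0.24 (adjusted p = 0.707). Jag1 differed by -0.89 (95% interval -1.70 to -0.07, adjusted p = 0.326) with Kit-J replicate 1 inside the Kit- range and replicate 2 below it. The single member wholly above was Dll3, whose Kit-J arrays (4.81 and 4.64) exceeded the Kit- arrays (4.58 to 4.62) by little. Endothelial markers fell on the same arrays (10 of 15 lower in Kit-J than in Kit-, 0 higher, mean -2.07 and -1.68). Of all 19937 genes 376 were lower there, and the part of the endothelial markers in the members' values was not tested. The difference between the OP9-Jag1 culture effects of Kit- and Kit+ cells had 0 of 9 members called (0.582% of all genes), with -0.81 for Notch2 (adjusted p = 0.443) and 1 of 9 members at an unadjusted p under 0.05, near the 9.44% of all genes.

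In Kit-D cells Jag1 and Dll4 overlapped with fresh Kit- cells. Jag1 differed from Kit- cells by 0.19 (95% interval -0.54 to 0.93) and Dll4 by -0.21 (-0.71 to 0.28). The member with an unadjusted p under 0.05 was the ligand Dll1 (0.39, 95% interval 0.05 to 0.73, adjusted p = 0.362, limma). Notch2, at 6.08, 6.01 and 6.13, lay wholly below the Kit- arrays (-0.34, adjusted p = 0.61). So did Dll3, at 4.33 to 4.42 (-0.21, adjusted p = 0.516). The share of all genes that did so is not given here. Notch1 was at 7.59, 7.44 and 8.18 in Kit-D cells, against 7.41, 7.16 and 7.45 in Kit- cells (0.40, adjusted p = 0.567), and its value of 8.18 on Kit-D replicate 3 was its highest in the study.

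**Figure D3:**
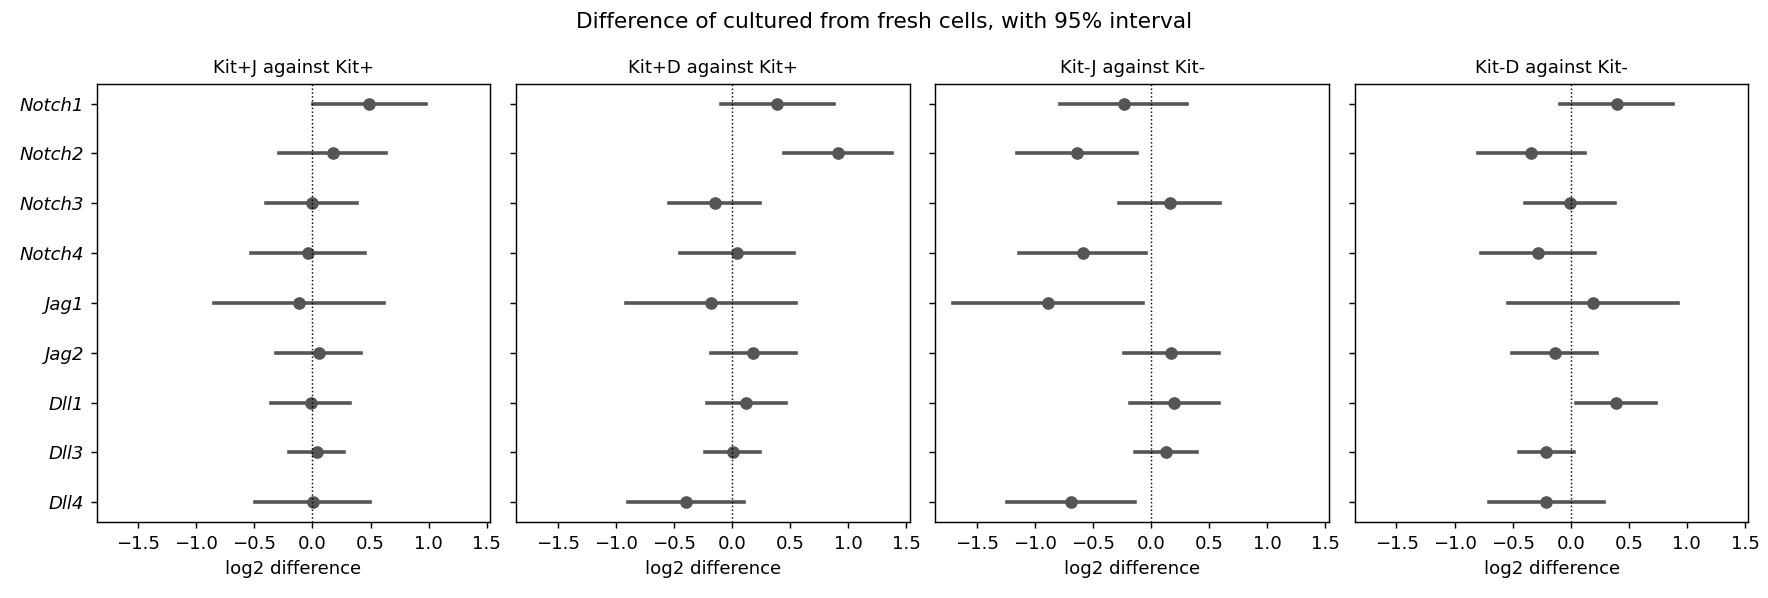
Log2 difference of each member between cultured cells and the fresh cells of the same Kit gate; points are estimates of the model over all 17 arrays and bars 95% intervals, with 0 of 36 differences past an adjusted p of 0.05. Notch2 in Kit+D against Kit+ cells (0.91) is the largest rise and Jag1 in Kit-J against Kit- cells (-0.89) the largest fall.

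The stromas were compared directly between cultured groups, in the fit over all 17 arrays. In Kit+J against Kit+D cells 0 of 9 members were called (2.25% of all genes in either direction) and in Kit-J against Kit-D cells 0 of 9 (9.37% of all genes). An unadjusted p under 0.05 was found for 1 of 9 members in Kit+J against Kit+D cells (19.1% of all genes) and for 3 of 9 in Kit-J against Kit-D cells (27.5% of all genes, limma). With only the 11 cultured arrays fitted, 0 of 9 members were called in either comparison, while far fewer genes in all were called (38 lower and 3 higher for Kit+J over Kit+D, with 631 lower and 117 higher for Kit-J over Kit-D). The ligand of a stroma was not called higher in the cells kept on it. Jag1 differed by 0.06 between Kit+J and Kit+D cells (95% interval -0.67 to 0.79) and by -1.08 between Kit-J and Kit-D cells (-1.90 to -0.26, adjusted p = 0.0868). Dll4 differed by 0.40 between Kit+J and Kit+D cells (-0.10 to 0.89) and by -0.48 between Kit-J and Kit-D cells (-1.03 to 0.07). Whether these probe sets read the transcripts that the stromal cells were made to express was not tested.

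Kit-J arrays lay below all Kit-D arrays for Notch1, Notch2, Notch4, Jag1 and Dll4, 5 of 9 members, and above them for Dll3 alone, where 18.9% and 28.9% of all genes did. Markers moved in the same comparison: 12 of 15 endothelial and 3 of 15 stromal markers were lower on Kit-J than on Kit-D arrays, with 0 higher, and 8 of 12 germ cell markers were higher, with 0 lower. Of all genes, 6.07% were lower and 3.3% higher. The mean log2 level of germ cell markers, relative to the Kit- mean, was 1.12 and 0.79 on the Kit-J arrays, against -1.82 to -0.69 on the Kit-D arrays, without overlap. The part of these markers in the members' values was not tested. Notch1, at 7.06 and 7.15 in Kit-J cells and 7.44 to 8.18 in Kit-D cells, differed by -0.64 (95% interval -1.18 to -0.09, adjusted p = 0.125). In Kit+ cells Notch2 had the largest difference between stromas, at 6.16, 6.09 and 6.28 in Kit+J cells against 7.41, 7.11 and 6.23 in Kit+D cells (-0.74, adjusted p = 0.0876), and Kit+D replicate 3 fell inside the Kit+J range. Without that array the difference was -1.08 (adjusted p = 0.0016).

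By group means, from high to low, Jag1 lay in the order Kit-D (6.71 ± 0.24, SD), Kit- (6.52 ± 0.48), Kit-J (5.63 ± 0.85), Kit+ (4.95 ± 0.40), Kit+J (4.83 ± 0.18) and Kit+D (4.77 ± 0.59). Dll4 followed as Kit- (5.99), Kit-D (5.78), Kit-J (5.30), Kit+J and Kit+ (both 4.94) and Kit+D (4.55), and Notch4 as Kit- (6.83), Kit-D (6.55), Kit-J (6.24), Kit+D (5.96), Kit+ (5.91) and Kit+J (5.87). For each of these genes the mean of the 2 Kit-J arrays stood between those of the other Kit- groups and of the Kit+ groups. For Jag1 both arrays also lay between these means, but far apart. Replicate 1 (6.24) lay inside the fresh Kit- range and replicate 2 (5.03) inside the fresh Kit+ range. For Dll4 replicate 1 (5.07) and for Notch4 replicate 2 (6.14) also lay inside the fresh Kit+ range. No neighbours in any of these orders differed past the threshold (lowest adjusted p = 0.245, limma).

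The ligands Jag2, Dll1 and Dll3 and the receptor Notch3, a receptor of mural cells, were not called in any comparison. Their 36 pairwise differences ran between -0.29 and 0.39, with 95% intervals reaching -0.72 and 0.73 at the extremes, and the lowest adjusted p was 0.0981, for Dll3 in Kit-J against Kit-D cells. Dll3, a ligand that does not activate Notch in neighbouring cells, varied least, between 4.33 and 4.81 over the 17 arrays, and only 0.938% of all genes had a smaller SD. Jag2 ranged between 4.77 and 5.54, Dll1 between 5.08 and 5.87 and Notch3 between 5.44 and 6.49. Jag2, Dll1, Dll3 and also Dll4 had a mean below that of the median gene (5.55).

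The other genes of the pathway were read from lists of core machinery, target genes and atypical ligands. Of 32 measured core genes (receptor processing, endocytosis, glycosylation and the RBPJ complex), 0 were called in Kit+ against Kit- cells, with a median of -0.09 against 0.06 over all genes. In Kit+D against Kit-D cells 2 of 32 were lower and 0 higher (median -0.15, against 0.05), a share near the 6.62% of all genes that were lower. They were Numb, an inhibitor of Notch (7.91 in Kit+D and 9.02 in Kit-D cells, -1.11, adjusted p = 0.00154), and the feedback inhibitor Nrarp (5.57 in Kit+D and 6.61 in Kit-D cells, -1.04, adjusted p = 0.0227).

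In Kit-J against Kit-D cells 3 of 32 core genes were lower and 1 higher (median 0.06, against 0.11), where 6.07% of all genes were lower and 3.3% higher. Nrarp (-1.16, adjusted p = 0.0304), Mib1, the ubiquitin ligase that ligand-bearing cells need to signal (-1.03, adjusted p = 0.0308), and Poglut1, which glucosylates the receptors (-1.22, adjusted p = 0.0464), were lower, and Dtx1, a Deltex ubiquitin ligase, was higher (0.70, adjusted p = 0.0235). Dtx1 was lower in Kit+D than in Kit+ cells (-0.70, adjusted p = 0.0417), the only core gene called between cultured and fresh cells.

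Of 18 Notch target genes, 8 were lower and 0 higher in Kit+ than in Kit- cells (median -0.52, against 0.06 over all genes), and 10 lower and 0 higher in Kit+D than in Kit-D cells (-0.97, against 0.05). The shares of all genes that were lower were 2.67% and 6.62%. Hey2, Efnb2 and Ccnd1 are targets that the study itself reported on these samples, so the list is not independent of them. Gja5, a connexin of arterial endothelium, was at 6.37, 5.16 and 4.98 in Kit+ cells, against 9.47, 9.79 and 9.28 in Kit- cells (-4.01, standard error 0.33, adjusted p = 4.96e-06). Its Kit+ arrays all lay more than 2 log2 units below the Kit- arrays. The repressor gene Hey2 differed by -1.99 (adjusted p = 5.31e-05) and the arterial ephrin gene Efnb2 by -2.44 (adjusted p = 3.94e-05).

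In Kit-J against fresh Kit- cells 376 of 19937 genes were lower and 50 higher, and 0 of 9 members were called. Of 18 targets, 6 were lower and 0 higher (median -0.41, against 0.09 over all genes). These were Gja5 (-2.95), Ccnd1 (-2.10), Efnb2 (-1.95), Hey2 (-1.85), the connexin gene Gja4 (-1.71) and Acvrl1, a BMP receptor gene of endothelium (-0.96), with adjusted p from 0.000563 to 0.0378. Both Kit-J arrays carry the conflicting description line, whose part in these differences was not tested. In Kit-J against Kit-D cells 9 targets were lower and 1 higher (Dtx1), where 6.07% of all genes were lower and 3.3% higher. Nrarp and Dtx1 are on both the core and the target list, so their calls count in both, here and in the other comparisons. Hes1, a classical Notch target, was at 5.96 and 7.33 in Kit-J cells, against 8.29, 8.25 and 8.62 in Kit-D cells (-1.75, adjusted p = 0.00755). On Kit+J set against Kit+ and on Kit-D set against Kit- arrays 0 of 18 were called (median -0.09 and 0.18, with 0.0201% and 0.171% of all genes called). In Kit+D against Kit+ cells, where 1.42% of all genes were called, Ccnd1, cyclin D1, was higher (1.23, adjusted p = 0.0427) and Dtx1 lower. Many of these targets are also expressed widely in arterial endothelium. Arterial markers were not read as a list of their own. The general endothelial markers were mostly lower in the comparisons in which several targets were lower. What part Notch signal or endothelial content had in the targets' values was not tested.

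**Figure D4:**
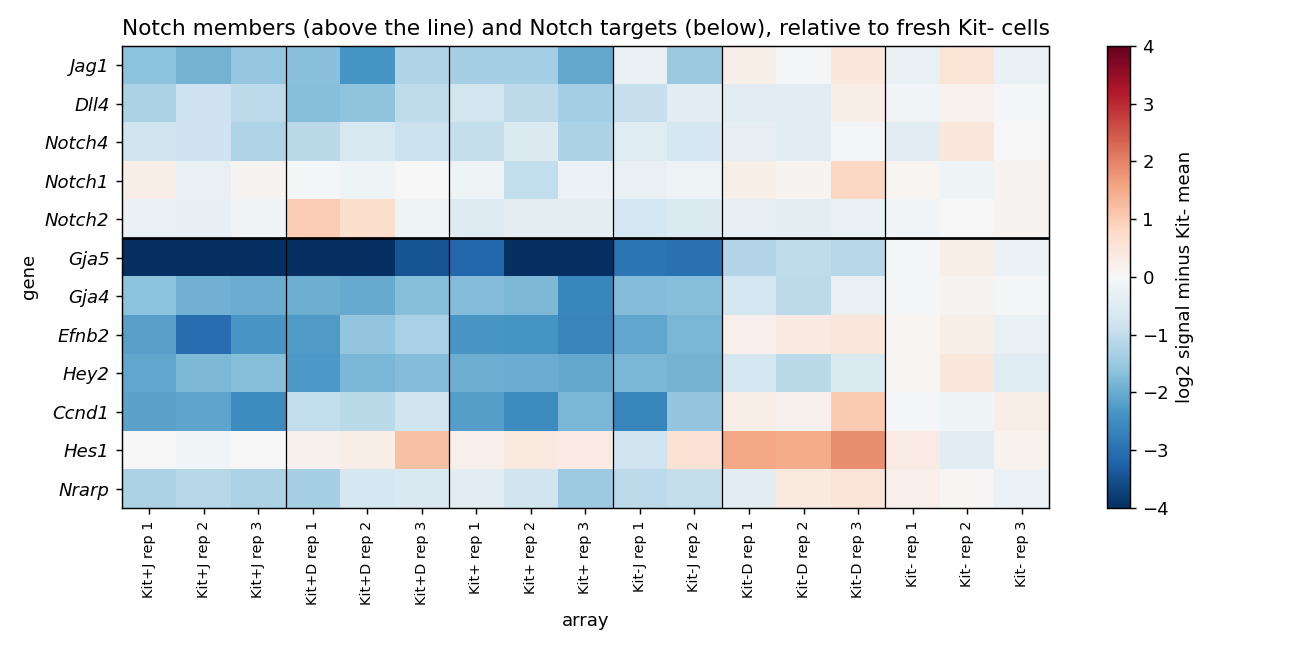
Log2 signal of 5 members and 7 Notch targets on each array, relative to the mean of the fresh Kit- arrays, with colours saturating at -4 and 4; vertical lines divide the groups. Gja5, Gja4, Efnb2 and Hey2 are low on the 2 Kit-J arrays as on the Kit+ arrays, while Jag1 is near the Kit- level on Kit-J replicate 1 and low on replicate 2.

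Among 8 atypical ligands, Egfl7, a secreted endothelial protein, and Mfap2, a microfibril protein, were the 2 called genes in Kit+ against Kit- cells (-1.50, adjusted p = 0.000665, and -2.10, adjusted p = 0.00067) and in Kit-J against Kit- cells (-1.25, adjusted p = 0.0118, and -1.98, adjusted p = 0.0055). Against Kit-D cells both were also lower in Kit-J and in Kit+D cells, and in the second of these Mfap5 was lower as well (-1.21, adjusted p = 0.00303). Of all genes, 2.67% were lower in Kit+ than in Kit- cells, and 376 of 19937 in Kit-J than in Kit- cells. In Kit+J against Kit+D cells Egfl7 (-0.99, adjusted p = 0.0296) and the target Ccnd1 (-1.30, adjusted p = 0.0252) were lower, with 0 calls among the 32 core genes. Between Kit+J and Kit-J cells, 0 of the 56 genes on the 3 lists passed the threshold (limma), and 5 had an unadjusted p under 0.05, where 10.7% of all genes did. The difference between the OP9-Jag1 culture effects of Kit- and Kit+ cells was called for 5 of 18 targets, between -2.62 for Gja5 and -1.88 for Efnb2, each negative. The share of all genes called was 0.582%.

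Jag1 and Dll4 were the only members with an SD of at least 0.5 over the 17 arrays (0.93 and 0.59). Over these arrays, which share group structure and processing, the genes most like Jag1 among 3575 with at least that SD were Adam12 (Pearson r 0.937), Armcx1 (0.935) and Mecom (0.93). Those most like Dll4 were Ablim1 (0.915), Col15a1 (0.907) and Gja5 (0.905). Within groups, after removal of the group means, r was 0.617 to 0.666 for the first 3 and 0.676 to 0.761 for the others. Jag1 and Dll4 had an r of 0.845 with each other and 0.314 within groups. Their r with the mean of the 15 endothelial markers was 0.849 and 0.83, and within groups -0.10 for Jag1 and 0.63 for Dll4. For Notch4 it was 0.807 and 0.29.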

How the data were processed

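RNA of the 17 samples (5 ng each per the labels) was amplified with the Ovation Pico WTA system and hybridised to Affymetrix Mouse Gene 1.0 ST arrays. Values were deposited on the log2 scale after RMA by the authors (version not given in the sources used here), which corrects background, equalizes the arrays and summarizes the probes of a set. Array medians were 5.22 to 5.38. The number of arrays limits the precision. For each gene the brightest of its probe sets with 1 symbol was kept (19937 genes). Groups were compared with limma 3.58.1 in R 4.3.3, fitting the 6 group means to all 17 arrays at once, with Benjamini-Hochberg adjustment over 19937 genes and a call at an adjusted p under 0.05. There were 12 comparisons: 9 between groups and 3 differences of differences. The study's text does not name its test. Scripts were tested on simulated data.

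Members and lists were chosen with earlier results of these data known. All 9 members are named, as are up to 6 called genes of each pathway list and comparison with the smallest adjusted p, and the 3 genes most like each member with an SD of at least 0.5. Some of these are given as counts only. Listed genes without a value here are not reported. Alternatives were a fit of the compared groups only, housekeeping scaling (7 genes), removal of dim genes, a variance trend with robust prior, quantile normalization, array weights, the mean of probe sets, a fixed and a random replicate block, cultured arrays only, removal of the conflicting OP9-Dll4 labels and removal of each array. A fit without Kit+D replicates 1 and 3, a fit also without Kit-D replicate 3, and a fit of OP9-Dll4 arrays with a replicate block were chosen after seeing the data. Kit+D and Kit-D arrays of the same number deviated from their group means in common (correlations 0.462, 0.179 and 0.289 over all genes, against at most 0.134 for different numbers), and their numbers were taken to pair them, which the labels do not state. Fresh arrays of the same number had correlations of 0.006 to 0.065, against up to 0.036 for different numbers. OP9-Jag1 arrays of the same number had -0.114 and -0.263. With 2 Kit-J arrays the deviations from their mean are mirror images, so values for different numbers only repeat these with the sign changed. Whether OP9-Jag1 numbers pair could therefore not be read from them. The replicate blocks over all arrays also used these numbers.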

Additional observations from a re-analysis of the deposited data

How the results depend on the processing

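No member changed direction in a called comparison under any alternative run. Jag1 and Dll4 in Kit+D against Kit-D cells were called under all 14 and 13 alternatives besides the removal of single arrays (differences -2.56 to -1.79 and -1.41 to -1.11; Dll4 is among the 4 members that the removal of dim genes drops), and so were both in Kit+ against Kit- cells (12 and 11 alternatives). Notch4 in Kit+ against Kit- cells was lost with only these groups fitted (adjusted p = 0.0909), with a variance trend (0.0512), with housekeeping scaling (0.107), with a random replicate block (0.0571) and without the 2 OP9-Dll4 arrays of conflicting label (0.0543). Notch2 in Kit+D against Kit-D cells was lost with only these groups (0.142), with cultured arrays only (0.0725) and in the paired fit of the OP9-Dll4 arrays with a replicate block (0.123), where Jag1 (0.00906) and Dll4 (0.0158) were kept. The fixed replicate block over all arrays changed no member's call, with 3 members called in each of these comparisons. That block groups equal numbers across fresh and cultured arrays, which the labels do not state, so it does not test a known pairing.

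Notch2 accounted for each call gained elsewhere. The number of all genes called moved too. In Kit+D against Kit+ cells 207 of 19937 genes were higher in the main fit and 239 of 9969 without dim genes. With housekeeping scaling 196 were higher, with array weights 653 and without the 2 OP9-Dll4 arrays of conflicting label 366. In Kit+J against Kit+D cells 334 were lower in the main fit, 278 with array weights and 705 without those arrays. In Kit+D against Kit+ cells 1 member was called without dim genes (adjusted p = 0.0423), with housekeeping scaling (0.0212), with array weights (0.00666), without the arrays of conflicting label (0.00192) and in both added fits without Kit+D replicates 1 and 3 (0.0117 and, without Kit-D replicate 3 as well, 0.0171). In Kit+J against Kit+D cells and in the OP9-Dll4 culture effect of Kit- minus that of Kit+ cells it was 1 with array weights (0.046 and 0.0391), without the arrays of conflicting label (0.0033 and 0.0385) and in the added fits (0.0191 and 0.0441, 0.0321 and 0.0428). In Kit-J against Kit- cells it was 1 without the 2 OP9-Dll4 arrays of conflicting label (adjusted p = 0.037, limma). The Notch2 difference of -0.64 stayed the same there and in the added fits, and only the estimate of the spread changed. Both Kit-J arrays, which carry the same conflict, remained in all of these fits. The added fit without Kit+D replicates 1 and 3 leaves 1 Kit+D array, assumed to vary like the other groups, and also called Notch3 in Kit+D against Kit-D cells (-0.69, adjusted p = 0.0455).

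When each array was left out, 0 to 3 members were called in Kit+ against Kit-, with 0 without Kit- replicate 2 or Kit+ replicate 3 and 1 without Kit- replicate 3. The range was 2 to 3 in Kit+D against Kit-D, and 0 to 1 in Kit-J against Kit-, Kit+D against Kit+, Kit+J against Kit+D, the difference of stroma effects and that of OP9-Dll4 culture effects, each time Notch2 without Kit+D replicate 3. Over all genes, 532 were lower in Kit+ than in Kit- cells in the main fit. That number was 420 without Kit- replicate 2, 388 without Kit+ replicate 3 and 395 without Kit- replicate 3. Without Kit+D replicate 3, 400 genes were higher in Kit+D than in Kit+ cells, against 207 in the main fit. In Kit+J against Kit+D cells 855 were then lower, against 334. Housekeeping scaling moved the median of all genes in Kit+D against Kit+ cells to 0.10, against -0.02 without it. With 2 or 3 arrays a group, 95% intervals were 0.47 to 1.6 log2 units wide between groups and up to 2.2 for differences of differences. Between groups they were narrowest for Dll3 and widest for Jag1. Small changes could therefore be missed for every member, the dim Jag2, Dll1 and Dll3 included. Changes of 1 log2 unit could be missed too. In the simulated data, with genes drawn at random, a change of -1 was called for 51 of 100 genes in Kit-J against Kit-. For Kit+ against Kit- the number was 58 of 100.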
